A study of Mus musculus with 6 samples.

Results

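The leptin receptor gene Lepr and 7 genes whose products act on or just below the receptor were examined in pancreatic islets of leptin receptor-deficient mice. The 8 genes, Lepr, Leprot, Leprotl1, Jak2, Sh2b1, Stat3, Socs3 and Ptpn1, were chosen for their place in the pathway. Earlier results of these data were known when they were chosen. They stand among 44713 genes with deposited read counts. The libraries were whole-transcriptome RNA-seq libraries, depleted of ribosomal RNA, made from pancreatic islets, with 3 libraries from db/db animals and 3 from db/m animals. The animals were male, were fed a normal diet and were 10 weeks old. The db/db mice carry the db allele of Lepr on both chromosomes and develop obesity and diabetes, and their littermates, the db/m mice, were not diabetic. The methods of the study give a BKS stock, in which a db/m animal has the db allele on 1 chromosome. The labels of the samples instead give the strain as C57BL/6, the db/db genotype as Lepr-/- and the db/m genotype as wild type. The mutation is in the germ line and thus in every cell, so the comparison of islets is also one between diabetic and non-diabetic animals.

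Leptin is a hormone of fat cells that lowers food intake through the hypothalamus and also acts on β cells, where it restrains insulin secretion. Its receptor has no kinase of its own. The long form of the receptor binds the tyrosine kinase JAK2, which phosphorylates the receptor and the transcription factor STAT3. The adaptor SH2B1 enhances JAK2 activity, SOCS3 is induced by STAT3 and blocks the receptor and JAK2, and the phosphatase PTP1B, the product of Ptpn1, removes the phosphate from JAK2. LEPROT and LEPROTL1 are related membrane proteins that limit the number of receptors on the cell surface. The db allele is a point mutation that adds an exon to the long form and ends its cytoplasmic tail early, while short forms of the receptor are still made.

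Of the 8 genes, 7 had a promoter window in RefSeq (GRCm38.p6), taken as 250 bases before to 50 bases after a start site, with 9 windows in all. They were searched on both strands for TTCNNNGAA, the palindromic motif bound by STAT factors, which reads the same on either strand. It was found only in the window of Socs3, on the minus strand of chromosome 11, beginning 154 bases before the start site. This window reaches upstream to chr11:117969616 and lies inside the annotated gene, which has 3 transcripts and reaches chr11:117970336. The outermost start of Socs3 was thus not searched. Nor were those of Lepr, Ptpn1 and Sh2b1, which lie outside their windows at chr4:101717137, chr2:167930750 and chr7:126476650. The 29 bases around the motif of Socs3, at chr11:117969502-117969530, are shown with the motif in capitals. They are shown because Socs3 was the only 1 of the 8 genes with an unadjusted p under 0.05.
Socs3: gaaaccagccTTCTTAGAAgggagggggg
The same motif was present in 2726 of 32851 promoter windows (8.3%), and binding to it was not measured. No motif in the windows of Lepr, Leprot, Jak2, Sh2b1, Stat3 and Ptpn1 means only that these letters were not in those bases.

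Between 15641797 and 20614531 reads per library were counted on genes. Levels are given as CPM, the counts relative to library size, after scaling by the TMM factors of edgeR. A level of 3 counts, used as a floor, lay between 0.11 and 0.241 CPM, though fewer reads of a gene were also counted. The factors of db/db replicate 1 (0.605) and db/m replicate 1 (1.75) stood apart from the other 4 (0.919 to 1.06). Acinar markers took most of the counts in every library: 24 markers of acinar cells took 74.7, 69.2 and 68.2% of the counts in db/db islets and 52.4, 64.4 and 66.2% in db/m islets. The summed level of 16 β-cell markers was 2540, 6590 and 5400 CPM in db/db islets and 25800, 7920 and 8150 CPM in db/m islets, and Mafa, a factor that defines mature β cells, was at 0 counts in db/db replicate 1. Neither the acinar share nor the β-cell sum overlapped between the groups. In such bulk samples fewer cells of a type and less RNA per cell cannot be told apart.

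None of the 8 genes differed between db/db and db/m islets at an adjusted p under 0.05, where 0.619% of the 12760 tested genes did. At an unadjusted p under 0.05 only Socs3 was called, 1 of 8 against 14.9% of all tested genes. Socs3 was also the only 1 of the 8 whose libraries did not overlap between the groups, against 21.1% of all tested genes. The median log2 fold change of the 8 genes, db/db minus db/m, was -0.06, beside -9e-04 over all tested genes. A count of 1 in 8 lies near both of these backgrounds. All 8 genes passed the filter on low counts.

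**Figure D1:**
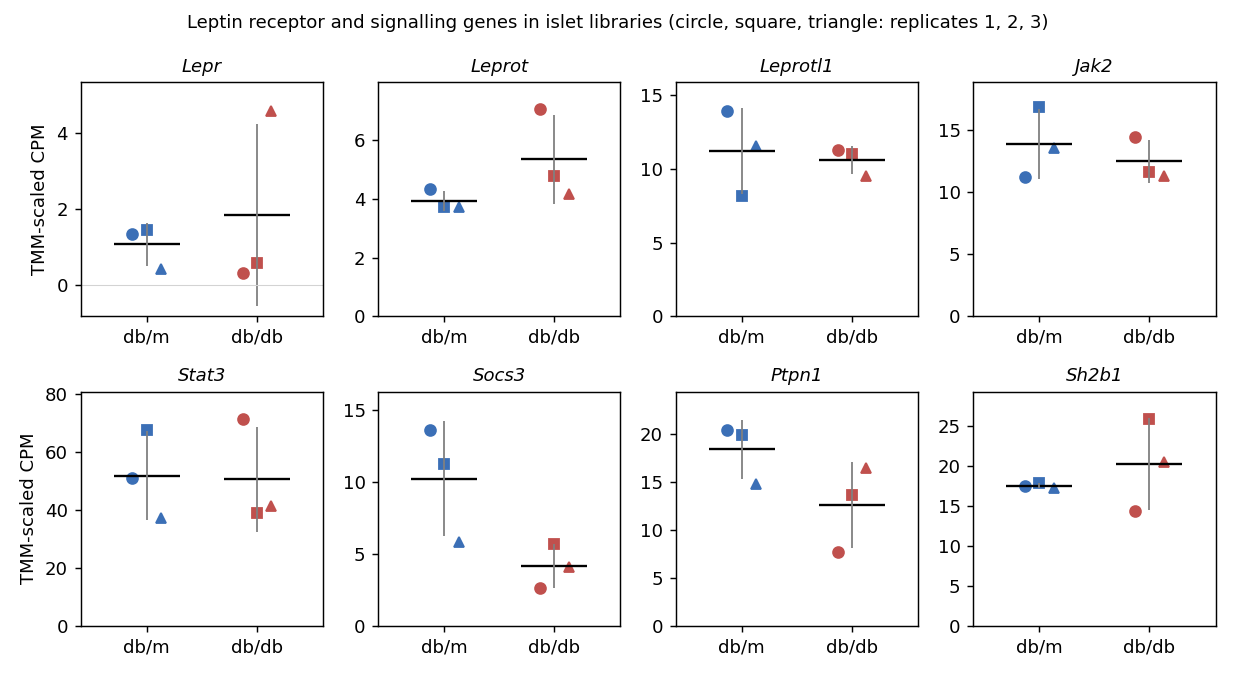
TMM-scaled CPM of the 8 genes in the 3 db/m (blue) and 3 db/db (red) libraries, where bars are means and vertical lines are ± 1 SD. Socs3 is the only gene whose groups do not overlap (2.65 to 5.68 CPM in db/db, 5.85 to 13.6 CPM in db/m), and the highest Lepr level is that of db/db replicate 3 (4.57 CPM).

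Lep, which encodes the ligand leptin, had 0 counts in all 6 libraries. By 3 counts, this allows up to between 0.146 and 0.192 CPM relative to library size. Leptin is a product of fat cells, and the summed level of 5 adipocyte markers lay between 0.419 and 1.61 CPM in db/db islets and between 0.92 and 3.6 CPM in db/m islets, with Adipoq at 0 in 4 of the 6 libraries and Fabp4, which other cells also express, above 0 in each.

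Lepr lies at chr4:101717137-101815352 (GRCm38.p6, plus strand). RefSeq gives it 4 transcripts that share 16 exons, and only 2720 of its 7380 exonic bases (36.9%) are in every transcript. The long form, with 1162 amino acids, has a last exon of its own at chr4:101814448-101815352, and the other 3 transcripts code for 892, 893 and 894 amino acids. The deposited counts are per gene, so they do not part the long form from the short forms, and Lepr counts cannot check the genotype labels.

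Lepr was the least expressed of the 8 genes per length of exon. The db/db libraries held 4, 10 and 68 Lepr reads, or 0.321, 0.598 and 4.57 CPM. The db/m libraries held 37, 25 and 8 reads, or 1.36, 1.46 and 0.433 CPM. The spread within the db/db group ran from below every db/m library to above every db/m library, so the groups overlapped completely. At these depths counting error was itself wide: relative to library size, 4 reads in db/db replicate 1 gave 0.194 CPM with a 95% Clopper-Pearson interval from 0.0529 to 0.497, and 68 reads in db/db replicate 3 gave 4.2 CPM with an interval from 3.26 to 5.32. The interval of db/db replicate 3 began just at the upper end of the highest interval among the other libraries, that of db/m replicate 1 (1.67 to 3.26).

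Lepr averaged 1.83 ± 2.38 CPM (SD, n = 3) in db/db islets and 1.08 ± 0.564 CPM (SD, n = 3) in db/m islets. The log2 fold change was 0.75 (SE 0.92), with a 95% interval from -1.31 to 2.82, and the adjusted p of edgeR's quasi-likelihood test was 0.732. This interval runs from 0.403-fold to 7.06-fold. At this depth and spread, the libraries do not tell a lower Lepr level in db/db islets from a higher one. The sign rested on 1 mouse: without db/db replicate 3 the log2 fold change was -1.20 (adjusted p = 0.629), and leaving out any other mouse left it between 0.40 and 1.25.

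Markers of other cell types differed among the same libraries. Stromal markers summed to 49.6, 62.3 and 87.5 CPM in db/db islets and to 73.3, 19.9 and 14 CPM in db/m islets. Leukocyte markers summed to 61.1, 24.5 and 92.3 CPM in db/db islets and to 110.0, 17.5 and 7.31 CPM in db/m islets, and endothelial markers to 15.7, 27.2 and 28.4 CPM and to 52.4, 18.3 and 32.9 CPM. The db/db library with the most Lepr reads thus had the highest stromal, leukocyte and endothelial sums of its group. In the db/m group, replicate 3 had the fewest Lepr reads and the lowest stromal and leukocyte sums, but not the lowest endothelial sum. Other ranks went the other way. Leukocyte and endothelial sums were higher in db/m replicate 1 than in db/db replicate 3, with 1.36 against 4.57 CPM of Lepr. Of the db/db libraries, replicate 1 had the fewest Lepr reads but a higher leukocyte sum than replicate 2. Pdgfra was at 0 in db/m replicates 2 and 3, and Cd3e was at 0 in db/db replicate 1 and db/m replicates 2 and 3. The part of these cells in the Lepr level was not tested.

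The genes whose levels over the 6 libraries were most like Lepr, among 11557 genes with a mean of at least 1 CPM, were 2900026A02Rik (Pearson r = 0.99 on the log2(CPM + 1) scale), Zbtb12 (r = 0.988), N4bp3 (r = 0.956), Prim1 (r = 0.954) and Xrcc1 (r = 0.951). Zbtb12 shows the shape of this pattern, with 1.53, 1.67 and 4.10 CPM in db/db islets and 2.31, 2.68 and 1.46 CPM in db/m islets. Over 6 libraries scaled by the same factors, 29 genes had an r over 0.9, and the likeness is a description of these libraries alone.

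Leprot, at chr4:101647783-101659364 on the same strand, is the nearest gene of the pathway to Lepr. In the RefSeq mouse annotation its end is 57772 bases upstream of Lepr and the genes share 0 exonic bases. Leprot had 7.07, 4.78 and 4.17 CPM in db/db islets and 4.33, 3.73 and 3.74 CPM in db/m islets. Replicates 1 and 2 of db/db stood above the db/m range, and the groups overlapped because db/db replicate 3 lay below db/m replicate 1. The means were 5.34 ± 1.53 CPM and 3.93 ± 0.346 CPM, and the log2 fold change was 0.44 (SE 0.31), 95% interval -0.26 to 1.13, with an adjusted p of 0.536 in edgeR, while scaling by library size alone, which moved the median of all genes to -0.59, gave -0.24.

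The number of Lepr reads per 100 Leprot reads does not depend on scaling. It was 4.55, 12.5 and 110.0 in db/db islets and 31.4, 39.1 and 11.6 in db/m islets. Within the db/db group the ratio thus covered the whole range of the db/m group and more on both sides. The mean log2 ratio was -2.37 ± 2.27 in db/db islets and -2.01 ± 0.90 in db/m islets, a difference of -0.36 with an exact two-sided permutation p of 1, where 3 mice against 3 cannot give less than 0.1.

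Leprotl1 (chr8:34135572-34146739, minus strand), the paralog of Leprot, was the member of that pair with more reads per length. It had 11.3, 11.0 and 9.55 CPM in db/db islets and 13.9, 8.15 and 11.6 CPM in db/m islets, so the db/m libraries enclosed the db/db libraries. The log2 fold change was -0.08 (SE 0.26), 95% interval -0.67 to 0.50, with an adjusted p of 0.901 in edgeR. As a fold this interval runs from 0.629 to 1.42.

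Jak2 (chr19:29251803-29313095, plus strand), the kinase on the receptor, had 14.5, 11.7 and 11.3 CPM in db/db islets and 11.2, 16.8 and 13.5 CPM in db/m islets. The lowest and the highest level both belonged to the db/m group. The log2 fold change was -0.15 (SE 0.24), 95% interval -0.70 to 0.40, with an adjusted p of 0.806.

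Sh2b1 (chr7:126466993-126476650, minus strand), the adaptor that enhances JAK2, had 14.4, 25.9 and 20.5 CPM in db/db islets and 17.5, 17.8 and 17.2 CPM in db/m islets. The db/m libraries lay in a narrow range, and the db/db libraries lay on both sides of it. The means were 20.3 ± 5.76 CPM and 17.5 ± 0.303 CPM, and the log2 fold change was 0.21 (SE 0.26), 95% interval -0.36 to 0.79, with an adjusted p of 0.729, while scaling by library size alone gave -0.32.

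Stat3 (chr11:100886806-100939594, minus strand) was the most expressed of the 8 genes per length and is the target of the kinase. It had 71.5, 38.9 and 41.5 CPM in db/db islets and 50.9, 67.6 and 37.1 CPM in db/m islets. One mouse of each group was high and the groups overlapped over almost their whole range, with means of 50.6 ± 18.2 CPM and 51.9 ± 15.2 CPM. The log2 fold change was -0.04 (SE 0.32), 95% interval -0.76 to 0.69, with an adjusted p of 0.971. The gene model Gm46295 overlaps Stat3 in the annotation, and since it is not stated whether strand was used in counting, reads of both cannot be told apart. Phosphorylation, by which JAK2 activates the STAT3 protein, is not seen in RNA counts.

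Socs3 (chr11:117966079-117970336, minus strand), the feedback inhibitor with the STAT motif shown above, held 33, 95 and 61 reads in the db/db libraries, or 2.65, 5.68 and 4.10 CPM. It held 371, 193 and 108 reads in the db/m libraries, or 13.6, 11.2 and 5.85 CPM. All 3 db/db libraries lay below all 3 db/m libraries, but the highest db/db and the lowest db/m level were close. The mean was 4.14 ± 1.52 CPM (SD, n = 3) against 10.2 ± 3.98 CPM (SD, n = 3), which is 2.46-fold lower in db/db islets. The log2 fold change was -1.30 (SE 0.39) with a 95% interval from -2.18 to -0.41, an unadjusted p of 0.00882 and an adjusted p of 0.166 in edgeR, so it did not pass the threshold.

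The difference kept its sign in all 17 other settings, where the log2 fold change lay between -1.91 and -0.65 and the adjusted p between 0.0171 and 0.543. It passed the adjusted threshold in 1 of them, without a filter on low counts (-1.29, adjusted p = 0.0171). It was smallest with a score of acinar markers as a covariate (-0.65, unadjusted p = 0.0974). Without db/db replicate 1 and db/m replicate 1, whose scaling factors stood apart, it was -0.76 (adjusted p = 0.494). The db/db libraries were also those with the higher acinar share and the lower β-cell sum, as given above. The summed level of 19 immediate-early genes was 170.0, 149 and 277 CPM in db/db islets and 1240, 2170 and 1320 CPM in db/m islets, again without overlap. The acinar covariate was the mean log2(CPM + 1) of the acinar markers. Since the acinar share did not overlap between the groups, a fit with this covariate over 6 libraries does not settle the part of acinar content. The part of acinar content, β-cell content and immediate-early genes in the Socs3 difference was not tested.

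**Figure D2:**
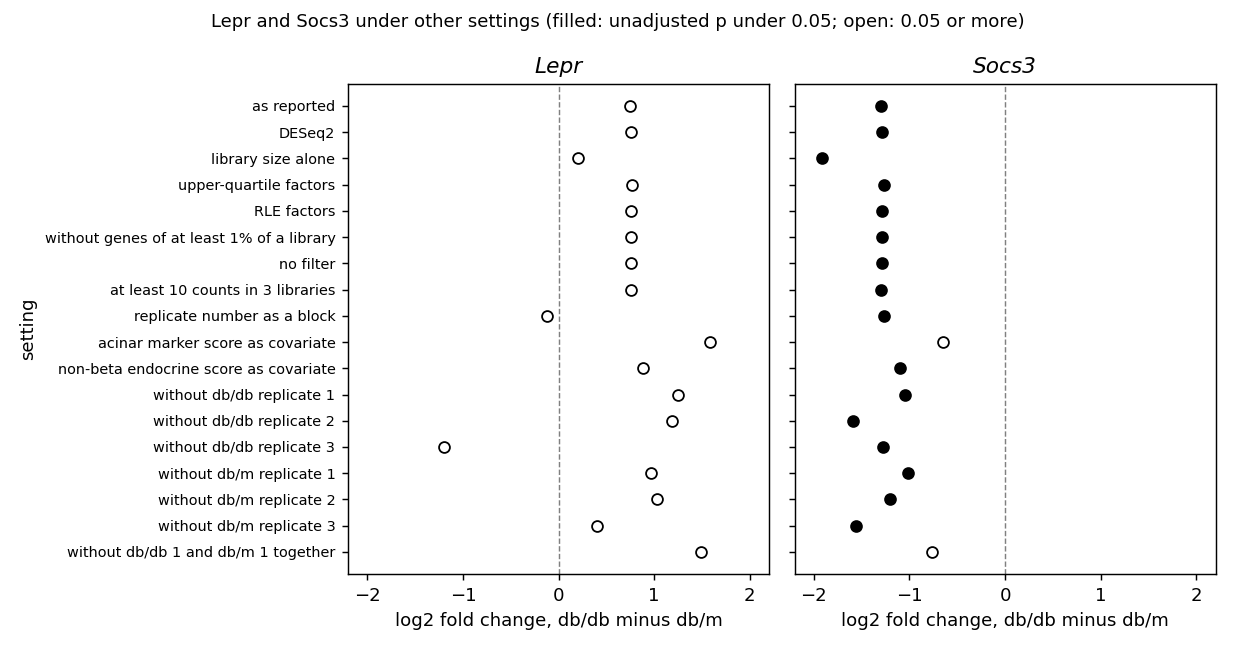
Log2 fold changes (db/db minus db/m) of Lepr and Socs3 as reported and under 17 other settings, 1 per line, where filled points have an unadjusted p under 0.05. Lepr lies on both sides of 0 (from -1.20 to 1.58) and has no filled point, and Socs3 lies below 0 in every setting (from -1.91 to -0.65), with 15 of the 17 other settings filled.

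Socs3 was then set against the factor that induces it, within each library and after its values had been seen. There were 3.7, 14.6 and 9.89 Socs3 reads per 100 Stat3 reads in db/db islets and 26.8, 16.6 and 15.7 in db/m islets. The groups did not overlap, with db/db replicate 1 far below and db/m replicate 1 above the other libraries. The mean log2 ratio was -3.61 ± 1.01 in db/db islets and -2.38 ± 0.42 in db/m islets, a difference of -1.23 with an exact two-sided permutation p of 0.1, the smallest that 3 mice against 3 can give.

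The pattern of Socs3 over the 6 libraries was a common one. Among the 11557 genes compared, 945 had an r over 0.9 with it on the log2(CPM + 1) scale, against 29 for Lepr. The most alike were Mapk8ip3 (r = 0.998), Tspan2 (r = 0.997), Lrrc49 (r = 0.996), Lrfn4 (r = 0.996) and Otud5 (r = 0.994). Mapk8ip3, which encodes a scaffold of the JNK kinases, had 20.1, 28.7 and 25.3 CPM in db/db islets and 52.3, 46.0 and 30.4 CPM in db/m islets, with an adjusted p of 0.214.

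Ptpn1 (chr2:167930750-167979385, plus strand) encodes the phosphatase PTP1B, the other inhibitor of the receptor. It had 7.71, 13.6 and 16.5 CPM in db/db islets and 20.4, 19.9 and 14.8 CPM in db/m islets. The groups overlapped only because db/db replicate 3 lay above db/m replicate 3. The means were 12.6 ± 4.47 CPM and 18.4 ± 3.11 CPM, and the log2 fold change was -0.54 (SE 0.30), 95% interval -1.23 to 0.15, with an adjusted p of 0.448. It was negative in each of the 17 other settings, from -1.10 to -0.16, and passed the threshold in none.

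**Figure D3:**
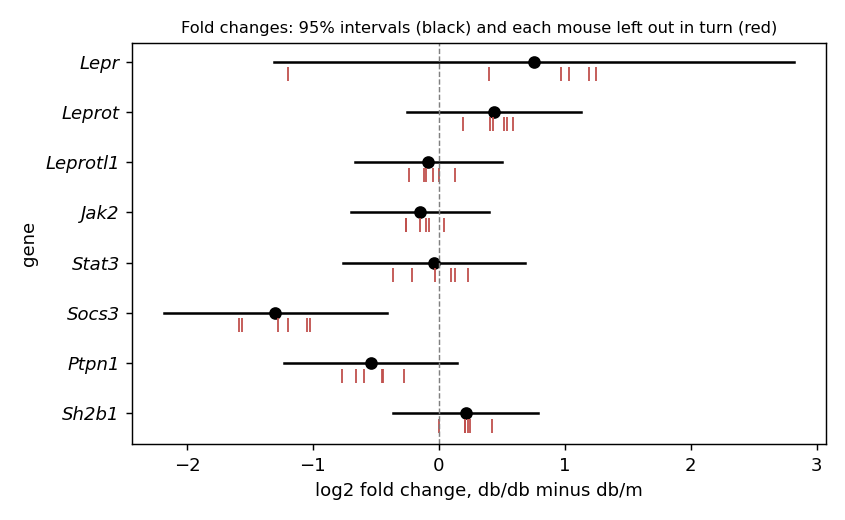
Log2 fold changes (db/db minus db/m) of the 8 genes with their 95% intervals in black and the values with each mouse left out in turn in red. The interval of Lepr is the widest (-1.31 to 2.82), and that of Socs3 (-2.18 to -0.41) is the only one that does not reach 0.

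Compared per length, as RPKM, the TMM-scaled CPM divided by the exonic length in kilobases, Stat3 was the highest of the 8 genes in both groups, with 11.1 ± 3.97 RPKM in db/db islets and 11.3 ± 3.33 RPKM in db/m islets. Leprotl1 followed with 4.11 ± 0.365 and 4.34 ± 1.13 RPKM. Lepr came last, with 0.248 ± 0.322 and 0.147 ± 0.0765 RPKM. In db/db mice the order between them was Sh2b1 (3.31 RPKM), Leprot (2.73), Ptpn1 (2.13), Jak2 (1.16) and Socs3 (1.15). In db/m mice it was Ptpn1 (3.1 RPKM), Sh2b1 (2.86), Socs3 (2.84), Leprot (2.01) and Jak2 (1.29). Neighbours in these orders overlapped in their libraries, except that Stat3 lay above Leprotl1 in both groups, Socs3 above Lepr in db/db islets, and Leprot above Jak2 and Jak2 above Lepr in db/m islets. Socs3, ranked the fifth in db/m islets, was thus next to last in db/db islets. The lengths are those of all annotated exons of a gene, 7380 bases for Lepr. Its transcripts have between 3407 and 6287 bases, and the long form has 3625. The length is thus overstated for every form of Lepr, and its RPKM is too low. Whether Socs3 and Lepr stay apart in db/db islets at a shorter length was not tested.

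Of 32 other genes of leptin signalling, 29 passed the filter, and none had an adjusted p under 0.05 in either direction. At an unadjusted p under 0.05, 0 were higher and 5 were lower in db/db islets, beside 5.04% higher and 9.89% lower over all tested genes. The libraries of 8 did not overlap between the groups, beside 21.1% over all tested genes, and the median log2 fold change was -0.19. The 4 genes with the smallest p were Irs2, Irs1, Prkaa1 and Cish.

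Irs2 and Irs1 encode the docking proteins by which insulin and leptin receptors reach PI3-kinase. Irs2 had 7.22, 9.63 and 12.4 CPM in db/db islets and 40.8, 55.7 and 12.0 CPM in db/m islets, so db/m replicate 3 lay within the db/db range while the other db/m mice were far above it. Its log2 fold change was -1.89 (SE 0.50, adjusted p = 0.12). Irs1 had 10.2, 7.89 and 8.0 CPM in db/db islets and 15.3, 36.3 and 14.1 CPM in db/m islets, without overlap, and a log2 fold change of -1.33 (SE 0.38, adjusted p = 0.142). DESeq2 called both genes lower (adjusted p = 0.00403 for Irs2 and 0.0336 for Irs1), as did edgeR without the filter, and without db/m replicate 3 edgeR called Irs2 (-2.29, adjusted p = 0.0163).

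Prkaa1, a catalytic subunit of the energy sensor AMPK, had 12.6 ± 2.15 CPM in db/db islets and 23.4 ± 6.29 CPM in db/m islets, a log2 fold change of -0.90 (adjusted p = 0.164). Cish, a STAT5-induced inhibitor of the same family as Socs3, had 13.6, 7.89 and 6.79 CPM in db/db islets and 15.7, 22.4 and 15.2 CPM in db/m islets, without overlap. Its log2 fold change was -0.92 (SE 0.31, adjusted p = 0.216). Of the other SOCS genes in the list, Socs2 had 3.49 ± 1.92 and 6.91 ± 4.83 CPM (adjusted p = 0.463), and Socs1 held at most 5 reads in any library and was not tested. Socs2, Socs1 and Stat5b, the fifth gene called (-0.75, adjusted p = 0.231), fall outside the rule for named genes and were picked after their values were seen.

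**Figure D4:**
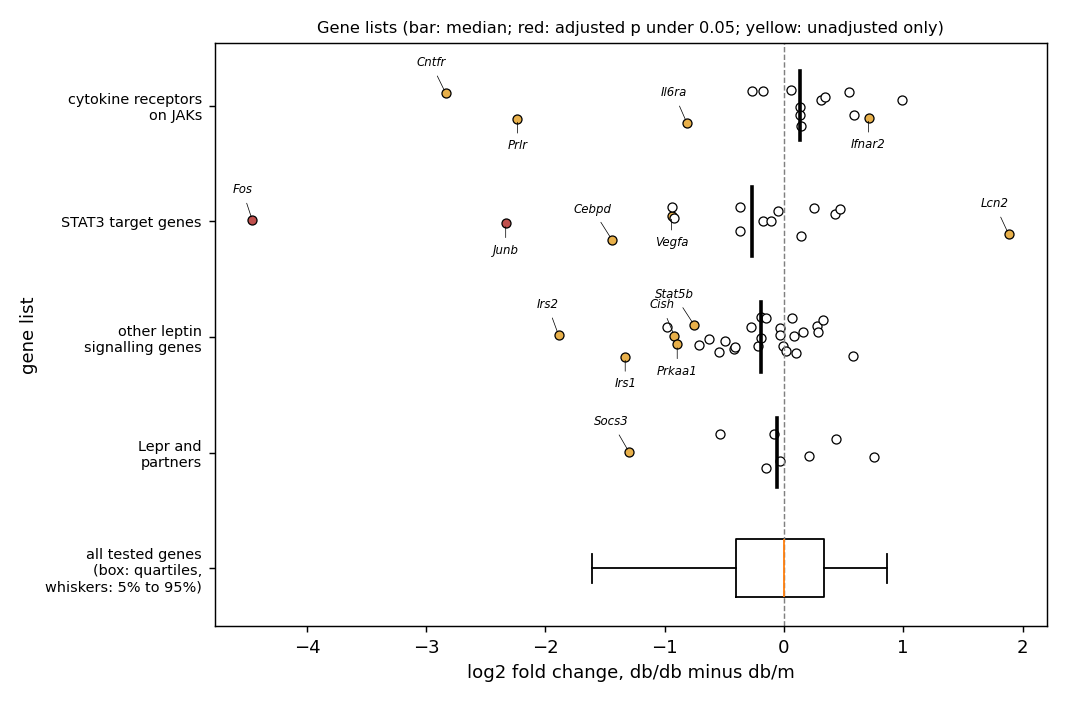
Log2 fold changes (db/db minus db/m) of the tested genes of 4 lists, 1 point per gene, above a box for all 12760 tested genes. Red points passed an adjusted p under 0.05 (Fos at -4.46 and Junb at -2.33), yellow points an unadjusted p alone, and thick bars are medians, from -0.27 for STAT3 targets to 0.13 for cytokine receptors.

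Of 20 genes known as targets of STAT3 in various cells, 16 were tested, and 2 passed the adjusted threshold, both lower in db/db islets, beside 0.619% of all tested genes in either direction. Fos had 9.79, 7.05 and 13.8 CPM in db/db islets and 200.1, 296.4 and 176.6 CPM in db/m islets, with a log2 fold change of -4.46 (SE 0.37, adjusted p = 0.00204). Junb had 4.82, 6.16 and 9.62 CPM and 35.4, 47.1 and 21.5 CPM, with a log2 fold change of -2.33 (SE 0.37, adjusted p = 0.0331). Both encode subunits of the transcription factor AP-1 and both are immediate-early genes, induced within minutes by many stimuli. Of 19 immediate-early genes, 18 were tested and 10 passed the adjusted threshold, all 10 lower in db/db islets, beside 62 lower among all 12760 tested genes. Junb lost its call when any 1 mouse other than db/m replicate 3 was left out, without both first replicates, with library size alone, with the replicate block and with the acinar covariate, whereas Fos passed in each of the 17 other settings.

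At an unadjusted p under 0.05, 1 of the 16 tested STAT3 targets was higher (beside 5.04% of all tested genes) and 4, Fos and Junb among them, were lower (beside 9.89%). Lcn2, which encodes the iron-scavenging protein lipocalin 2, had 2.57, 2.93 and 2.69 CPM in db/db islets and 0.587, 0.874 and 0.758 CPM in db/m islets, a log2 fold change of 1.88 (SE 0.43, adjusted p = 0.0902), and DESeq2 called it higher (adjusted p = 0.0116). Its replicates lay close together in both groups and the groups were far apart, opposite in direction to Socs3. Vegfa, the angiogenic growth factor, had 43.1 ± 10.5 and 82.7 ± 19.2 CPM, a log2 fold change of -0.94 (adjusted p = 0.157), and DESeq2 called it lower (adjusted p = 0.0435). Cebpd, a transcription factor gene named after its values were seen, was the other 1 called lower (-1.44, adjusted p = 0.333). Bcl3, Pim1, Myc, Mcl1, Hif1a and Reg3b had adjusted p-values between 0.449 and 0.979, and these 6 were listed after their values were seen.

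Lepr belongs to a large family of cytokine receptors that signal through JAK kinases. Of 19 other receptors of this kind, 15 were tested, none passed the adjusted threshold, 1 was higher and 3 were lower at an unadjusted p under 0.05 (beside 5.04% and 9.89% of all tested genes), and the median log2 fold change was 0.13. Prlr, the prolactin receptor, which acts in the growth of the β-cell mass, had 7.22, 24.5 and 18.7 CPM in db/db islets and 126.2, 58.2 and 53.6 CPM in db/m islets. The groups did not overlap and the log2 fold change was -2.24 (SE 0.49, adjusted p = 0.0819). Cntfr, the receptor of ciliary neurotrophic factor, had 0.401, 3.23 and 1.28 CPM and 20.7, 9.20 and 6.01 CPM, with a log2 fold change of -2.84 (SE 0.68, adjusted p = 0.0977).

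DESeq2 and edgeR without a filter called both Prlr and Cntfr lower. As for the β-cell sums given above, db/m replicate 1 was highest and db/db replicate 1 lowest, and the part of β-cell content in them was not tested. Il6ra, the interleukin 6 receptor, had a log2 fold change of -0.81 (adjusted p = 0.252), and Ifnar2, a subunit of the interferon receptor, had one of 0.71 (adjusted p = 0.271). Il6st, the shared subunit gp130, and Ghr, the growth hormone receptor, had levels of 53.1 ± 4.63 and 79.4 ± 7.02 CPM in db/db islets and 48.5 ± 12.8 and 72.4 ± 1.13 CPM in db/m islets. They were added after their values were seen, and their adjusted p-values were 0.842 and 0.805.

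The db allele is kept on a chromosome segment that db/db and db/m littermates carry in different dose, so genes near Lepr were examined as well. Within 1 Mb of Lepr the annotation holds 36 other genes, of which 20 were in the count table and 7 were tested, Leprot among them. None passed the adjusted threshold, 1 of the 7 was called at an unadjusted p under 0.05, near the 14.9% of all tested genes, and the median log2 fold change was 0.32, while 7 genes had 0 counts in every library.

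Ak4, a mitochondrial adenylate kinase 249.4 kb from Lepr, had 7.3, 4.01 and 13.9 CPM in db/db islets and 1.8, 2.56 and 4.22 CPM in db/m islets. Only db/db replicate 2 fell within the db/m range, just under db/m replicate 3. The log2 fold change was 1.56 (SE 0.49, adjusted p = 0.185), and DESeq2 called it higher (adjusted p = 0.0484). Jak1, the relative of Jak2 that serves other cytokine receptors, lies 451.9 kb from Lepr and had 85.6, 94.8 and 98.3 CPM in db/db islets and 74.5, 72.1 and 76.1 CPM in db/m islets. These groups did not overlap, but the log2 fold change was only 0.32 (SE 0.21, adjusted p = 0.512). The annotated ends of Jak1 and Raver2 overlap, and Raver2 had 0 counts in every library.

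Dnajc6, which encodes the clathrin-uncoating protein auxilin and lies next to Leprot, had 0.398 ± 0.353 CPM in db/db islets and 1.03 ± 0.672 CPM in db/m islets (adjusted p = 0.469). Sgip1, 926 kb away and also near the detection limit, had 0.306 ± 0.37 and 0.81 ± 0.559 CPM (adjusted p = 0.544). Leprot, given above, had a smaller p than Sgip1, which thus falls outside the rule for named genes.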

How the data were processed

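RNA-seq was performed on islets of 3 db/db and 3 db/m mice. The authors filtered adaptors and low-quality reads, mapped the reads to mm10 and deposited raw counts per gene symbol. TopHat is named as the aligner in the methods of the study, and HISAT2 2.0.4 in the processing notes of the submitters. The counting program, annotation and use of strand are not given in the sources used here.

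The counts were tested with edgeR 4.0.16 in R 4.3.3, using filterByExpr, TMM factors and the quasi-likelihood F-test. The p-values were adjusted by the Benjamini-Hochberg method for 12760 genes, with 0.05 as the threshold. SE is the log2 fold change over the root of F, without its sign. The p-values set the difference between the groups against the spread between mice. The fit was tested on simulated data with large changes, as many higher as lower. The simulation held no small changes and no differences in cell content between libraries, so it does not cover these. Counting intervals are Clopper-Pearson (95%), and they and the floor of 3 counts cover counting error alone. Ratios used a pseudocount of 0.5 and two-sided exact permutation tests. Positions, promoters and exon lengths are from RefSeq GRCm38.p6, matched by symbol.

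The members and lists were chosen with earlier results of these data known. Named genes were the 8 genes, Lep, for each list the genes past the threshold and up to 4 with the smallest p, and the 5 genes most alike to Lepr and to Socs3. Alternatives were DESeq2 1.42.0, 4 other scalings or gene sets, other filters, marker scores as covariates, the replicate number as a block and leaving out each mouse. The Socs3 to Stat3 ratio, and leaving out both first replicates together, were added after seeing the data. The result of 1 other gene is not reported here. Figures were drawn with matplotlib 3.10.9.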

Additional observations from a re-analysis of the deposited data

How the results depend on the processing

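Over all genes the 79 calls became 680 with DESeq2, 21 with library size alone, 52 with upper-quartile factors, 888 without a filter, 293 with the non-β endocrine score as covariate, and 10 to 333 with 1 mouse left out (10 without db/db replicate 2, 333 without db/m replicate 3). The share of calls that were higher in db/db mice was 21.5%, 32.4% with the acinar score, 40% without both first replicates, and from 12.9% (without db/m replicate 3) to 41.2% (without db/db replicate 1) with 1 mouse left out. Library size alone moved the median log2 fold change of all genes to -0.59. Among the 8 genes 0 were called, and 1 (Socs3, -1.29) without a filter. Among other leptin signalling genes 0 were called, 2 with DESeq2, 2 without a filter and 0 to 1 with 1 mouse left out. Of STAT3 targets 2 were called, 4 with DESeq2, 1 with library size alone, 1 with the acinar score, 1 without both first replicates and 1 to 2 with 1 mouse left out. Of cytokine receptors 0 were called, and 2 each with DESeq2, without a filter and with the non-β endocrine score. Near Lepr 0 were called, and 1 (Ak4) with DESeq2 and without a filter. Of the 136 alternative values of single members, 123 kept their sign and their side of the threshold. Lepr ran from -1.20 to 1.25 with 1 mouse left out, and its log2 ratio to Leprot from -1.61 to 0.61, the latter without db/db replicate 1. Signs also turned for Leprot (-0.24) and Sh2b1 (-0.32) with library size alone, Leprotl1 (0.10 with the acinar score, 0.01 with the non-β endocrine score, 0.13 without db/m replicate 1, 0.10 without both first replicates), Stat3 (-0.36 to 0.23 with 1 mouse left out, 0.13 without db/db replicate 2, 0.10 without db/db replicate 3, 0.23 without db/m replicate 2) and Jak2 (-0.26 to 0.04 with 1 mouse left out, 0.04 without db/m replicate 2). The causes were not tested. Fewer than 70 Lepr reads in any library limit what can be said of it.

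With the replicate number as a block, 16 genes were called in all and 1 STAT3 target, and the log2 fold change of Lepr was -0.12. Mice that share a number deviated from their groups with correlations of -0.527, -0.195 and -0.323, so no likeness by number was seen. With 3 mice per group, such correlations cannot exclude that the numbers pair the mice.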
